A study of Homo sapiens with 24 samples.

Results

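The mRNA of A549 cells after 48 h in CAF conditioned medium was compared with that of A549 cells after 48 h in control medium. A549 is an established epithelial cell line from a human lung adenocarcinoma. The labels do not spell out CAF, the donor of the medium, which usually stands for cancer-associated fibroblast in this field. There was 1 CAF medium library and 1 control library at 48 h. The submitters describe 2 biological replicates of each sample, but the table holds 1 value per gene and sample, so no difference below has a replicate check or a p-value. Genes were included where at least 1 of these 2 libraries reached 5 RPKM (read counts corrected for gene length and library depth), which held for 8048 of the 22026 genes in the table (36.5%). Of these, 7056 reached 5 RPKM in both libraries, 413 only in CAF medium and 579 only in control medium. At the limit, 5 genes such as GXYLT1 entered with a higher value of exactly 5 RPKM, and 9 such as ACN9 stayed out at 4.99 RPKM. The same cells were also sequenced at 3, 6, 12, 24 and 72 h in both media, and those libraries are used as context only.

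Conditioned medium carries the proteins, vesicles and metabolites that the donor cells released, and it is also depleted of nutrients that those cells took up. Fibroblasts around a tumour are known to release growth factors, cytokines and matrix components that act on carcinoma cells. The study looked for markers of the epithelial-mesenchymal transition, by which epithelial cells give up their contacts and become motile.

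The RPKM values imply 37.8 M mapped reads in the CAF medium library and 35.4 M in the control library, within the 23.9 to 40.6 M of all 12 mRNA libraries. The 10 most abundant genes took 13.3% of the summed RPKM in CAF medium and 15.2% in control medium, and mitochondrial transcripts took 5.14 and 6.71% of the reads in CAF and control medium. The 18 epithelial genes summed to 3390 RPKM in CAF medium and 5146 RPKM in control medium, with KRT8 at 1265 RPKM in CAF medium and 2161 RPKM in control medium. KRT19 stood at 4.86 RPKM in CAF medium and 5.26 RPKM in control medium, and ESRP1, GRHL2, CLDN3 and CLDN7 were under 1 RPKM in both. The 12 fibroblast markers summed to 17.4 RPKM in CAF medium and 16.4 RPKM in control medium, with 7 of them under 1 RPKM in both and none at 0. Most of the sum came from FBN1 (5.36 and 4.67 RPKM in CAF and control medium), FAP (4.71 and 4.09 RPKM) and the collagen gene COL1A1 (3.65 and 4.18 RPKM). The collagen gene COL1A2 stood at 0.02 RPKM in CAF medium and 0.03 RPKM in control medium. The 8 immune, endothelial and blood markers summed to 32.1 RPKM in CAF medium and 19.9 RPKM in control medium, nearly all of it CD68, a lysosomal protein, while CD3E was at 0 in both. The 7 alveolar and airway markers summed to 10.3 RPKM in CAF medium and 7.72 RPKM in control medium, most of it ABCA3 (8.91 and 6.81 RPKM). Among them the lung lineage factor gene NKX2-1 stood at 0.03 RPKM in CAF medium and 0.01 RPKM in control medium. In bulk RNA, fewer cells of a type and less RNA per cell cannot be told apart.

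CAF medium was marked at 48 h by lower levels of the genes of DNA replication and mitosis. TXNIP, GDF15, the immediate early genes that reached 5 RPKM and a few NF-kB and hypoxia genes were higher. On the log2 scale of RPKM plus 0.5, which understates the change of low genes, 195 genes rose by at least 2-fold, which is 2.42% of the 8048, and 250 fell by at least 2-fold, which is 3.11%. A 4-fold change was reached by 8 rises and 12 falls. Gene models under 400 bases, whose reads are least certain, made up 2 of the 195 rises and 4 of the 250 falls. All of these were among the 8 and 12 that reached 4-fold. Over all genes, 3580 (44.5%) were higher and 4460 (55.4%) lower in CAF medium, and the median difference was -0.06, with 5% of genes below -0.84 and 5% above 0.76. The excess of falls over rises depended on the scaling, since falls were 56.2% of the calls as deposited and 47.7% after the median of all genes was set to 0. In 444 of the 445 calls the 95% counting interval of the plain RPKM ratio lay wholly beyond 1.5-fold. The calls were chosen at 2-fold on these same values, so this count is no check of them. The interval covers counting error only and says nothing of the spread between cultures. Calls were spread over abundance: 1.91% rose and 3.4% fell among genes of 5 to 10 RPKM (the higher of the 2 values), against 3.14% and 2.65% among genes of 50 RPKM or more. Short gene models fell more often than long ones, with 3.98% falls among those of up to 2123 bases and 1.49% among those over 5039 bases.

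**Figure D1:**
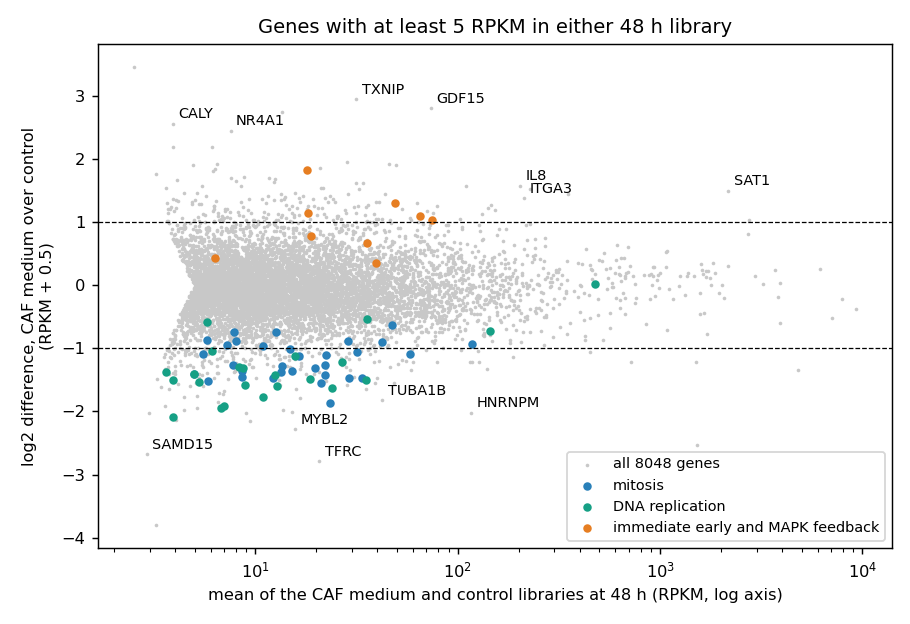
Log2 difference at 48 h (CAF medium over control, RPKM plus 0.5, vertical axis) against the mean RPKM of the 2 libraries (horizontal log axis) for all 8048 genes, with 3 gene lists in colour and dashed lines at the 2-fold threshold. The mitosis and DNA replication genes lie below 0 with 1 exception. All 9 immediate early and MAPK feedback genes that reached 5 RPKM lie above 0.

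TXNIP (chromosome 1) had the largest rise among gene models of at least 400 bases. It encodes the thioredoxin-interacting protein, which restrains glucose uptake and whose mRNA follows the glucose supply. TXNIP measured 56.1 RPKM in CAF medium and 6.81 RPKM in control medium, a log2 difference of 2.95 and a plain ratio of 8.24 with a counting interval of 7.65 to 8.89. GDF15 (chromosome 19), a stress-induced cytokine of the TGF-beta superfamily, measured 129 RPKM in CAF medium and 18.0 RPKM in control medium, a log2 difference of 2.81 and a ratio of 7.17 (6.65 to 7.75). These 2 genes differed in their course. CAF medium already held more TXNIP at 3 h (2.12 RPKM, control 0.08 RPKM, log2 2.18). At 24 h TXNIP measured 11.8 RPKM in CAF medium and 0.64 RPKM in control medium, a log2 difference of 3.43, above that at 48 h. In control medium TXNIP climbed to 21.7 RPKM at 72 h. GDF15 was at 12.7 RPKM in CAF medium and 8.49 RPKM in control medium at 24 h.

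The orphan nuclear receptor gene NR4A1 (chromosome 12), an immediate early gene, measured 13.1 RPKM in CAF medium and 1.98 RPKM in control medium (log2 2.46). INHBA (chromosome 7), whose product forms activin A, measured 72.3 RPKM in CAF medium and 18.7 RPKM in control medium (log2 1.93), and DUSP5 (chromosome 10), a nuclear phosphatase of ERK, 28.2 and 7.56 RPKM in CAF and control medium (log2 1.83). HBEGF (chromosome 5), a ligand of the EGF receptor, measured 9.93 RPKM in CAF medium and 2.46 RPKM in control medium (log2 1.82). The 4 genes thus joined a nuclear receptor, 2 secreted growth factors and a MAPK phosphatase, all with counting intervals beyond 3-fold.

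Most of the other large rises were of low genes. CALY (chromosome 10), a vesicle protein known from neurons, stood at 7.06 RPKM in CAF medium and 0.78 RPKM in control medium (log2 2.56), and GPR132 (chromosome 14), a G protein-coupled receptor of lymphocytes and macrophages, at 6.76 and 1.08 RPKM in CAF and control medium (log2 2.20). RASA2 (chromosome 3), a GTPase-activating protein for RAS, was higher in level, with 45.3 RPKM in CAF medium and 11.3 RPKM in control medium (log2 1.96). The long non-coding RNA EPB41L4A-AS1 (chromosome 5) measured 78.8 RPKM in CAF medium and 20.5 RPKM in control medium (log2 1.91), although reads of an antisense gene and its partner cannot be told apart here. CCDC19, HAPLN3 (a link protein of hyaluronan), TMEM178A, BC005927 and PIP completed the 15 largest rises, with log2 differences of 2.19, 1.93, 1.90, 1.85 and 1.85. The rise of BC005927 went with a low 48 h control: it measured 33.0 RPKM in CAF medium and 8.75 RPKM in control medium, and with the mean log2 level of the 24 and 72 h controls in place of that of the 48 h control its difference was 0.52.

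**Figure D2:**
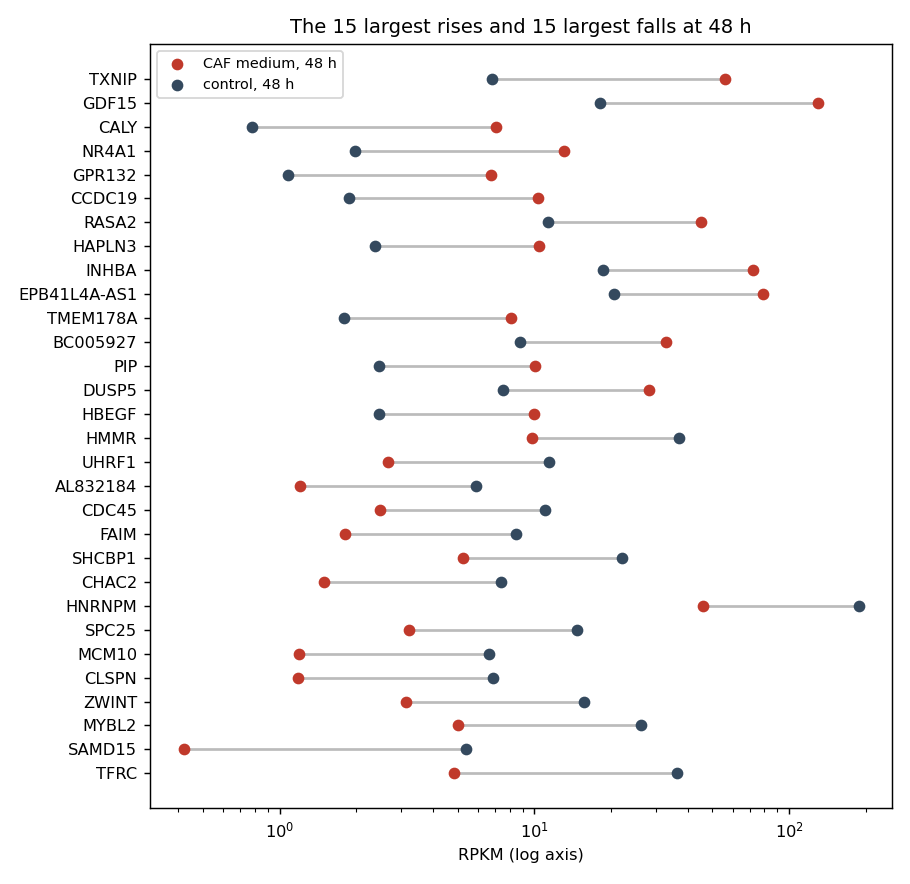
RPKM (log axis) of the 15 largest rises and 15 largest falls at 48 h among gene models of at least 400 bases, with the CAF medium library in red and the control library in dark blue. The points of TXNIP stand at 56.1 RPKM in CAF medium and 6.81 RPKM in control medium, and those of TFRC at 4.84 and 36.4 RPKM in CAF and control medium.

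TFRC (chromosome 3) had the largest fall among gene models of that length. It encodes the transferrin receptor, through which cells take up iron, and its mRNA is stabilised when iron is scarce. TFRC measured 4.84 RPKM in CAF medium and 36.4 RPKM in control medium, a log2 difference of -2.79 and a plain ratio of 0.133 (0.124 to 0.142). Its level in CAF medium at 48 h was the lowest of all 12 libraries. SAMD15 (chromosome 14), a protein with a sterile alpha motif domain, stood at 0.42 RPKM in CAF medium and 5.40 RPKM in control medium (log2 -2.68). MYBL2 (chromosome 20), the transcription factor B-MYB of dividing cells, stood at 5.03 RPKM in CAF medium and 26.3 RPKM in control medium (log2 -2.28).

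Of the other 12 largest falls, 8 encode proteins of chromosome duplication or segregation or of cells that divide. They were the kinetochore genes ZWINT (log2 -2.15) and SPC25 (-2.03), the checkpoint adaptor gene CLSPN (-2.14) and the replication genes MCM10 (-2.08) and CDC45 (-1.95). The rest were the DNA methylation cofactor gene UHRF1 (-1.91), the spindle gene HMMR (-1.86) and SHCBP1 (-1.97), a SHC-binding protein found at the midbody. HNRNPM (chromosome 19), a splicing factor, was the most abundant of the large falls, with 45.9 RPKM in CAF medium and 188 RPKM in control medium (log2 -2.02). CHAC2, an enzyme that degrades glutathione, FAIM, an inhibitor of Fas-induced death, and AL832184 differed by -1.98, -1.95 and -1.92.

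Most of the DNA replication list fell. In this and the later lists the members are only those genes that reached 5 RPKM in either 48 h library, here 23 of 27. A gene can thus enter through 1 library alone, which favours calls towards that library. Several of the falls entered through the control library alone, among them MCM10 (1.19 RPKM in CAF medium and 6.66 RPKM in control medium), MCM5, CDC45 and E2F1. Of its 23 members, 19 fell by at least 2-fold (82.6%) and none rose, against 3.11% falls over all genes, and the median difference was -1.43 against -0.06 over all genes. The helicase genes MCM2 to MCM7 differed by -1.12 (MCM6) to -1.63 (MCM4). TK1, thymidine kinase of the salvage pathway, measured 4.66 RPKM in CAF medium and 17.1 RPKM in control medium (log2 -1.77). TYMS, which makes thymidylate, measured 18.2 RPKM in CAF medium and 52.3 RPKM in control medium (log2 -1.50). RRM2, the small subunit of ribonucleotide reductase, measured 6.57 RPKM in CAF medium and 18.5 RPKM in control medium (log2 -1.43). These 3 genes supply or commit nucleotides to DNA synthesis, and 22 of the 23 members were lower in CAF medium, against 55.4% of all genes. Among the 4 members that missed the threshold were PCNA, the sliding clamp (-0.72), the polymerase gene POLA1 (-0.59) and RRM1, the large ribonucleotide reductase subunit (-0.53).

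All 32 members of the mitosis list were lower in CAF medium, between -1.86 and -0.62, against 55.4% of all genes. Of them 22 (68.8%) fell by at least 2-fold, against 3.11% of all genes, with a list median of -1.19. CCNB1, cyclin B1, measured 17.5 RPKM in CAF medium and 49.5 RPKM in control medium (log2 -1.48). FOXM1, a transcription factor of the G2 phase, measured 2.76 RPKM in CAF medium and 8.86 RPKM in control medium (log2 -1.52). FOXM1, CENPE and TTK were among the falls that reached 5 RPKM in control medium only. MKI67, which encodes the proliferation antigen Ki-67, measured 11.8 RPKM in CAF medium and 32.4 RPKM in control medium (log2 -1.42). The kinase genes PLK1 and AURKA differed by -1.35 and -1.01, and AURKA and the replication gene RFC3 (-1.04) fell short of 2-fold after median centring (-0.96 and -0.98). Against the 24 and 72 h controls AURKA, RFC3 and MCM6 also missed 2-fold (-0.99, -0.98 and -0.96). TOP2A, CDC20 and CDK1, at -0.92, -0.96 and -0.88, were among the 10 members that did not reach 2-fold. The 2 lists, with 23 and 32 of the 8048 genes, together held 41 of the 250 falls.

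**Figure D3:**
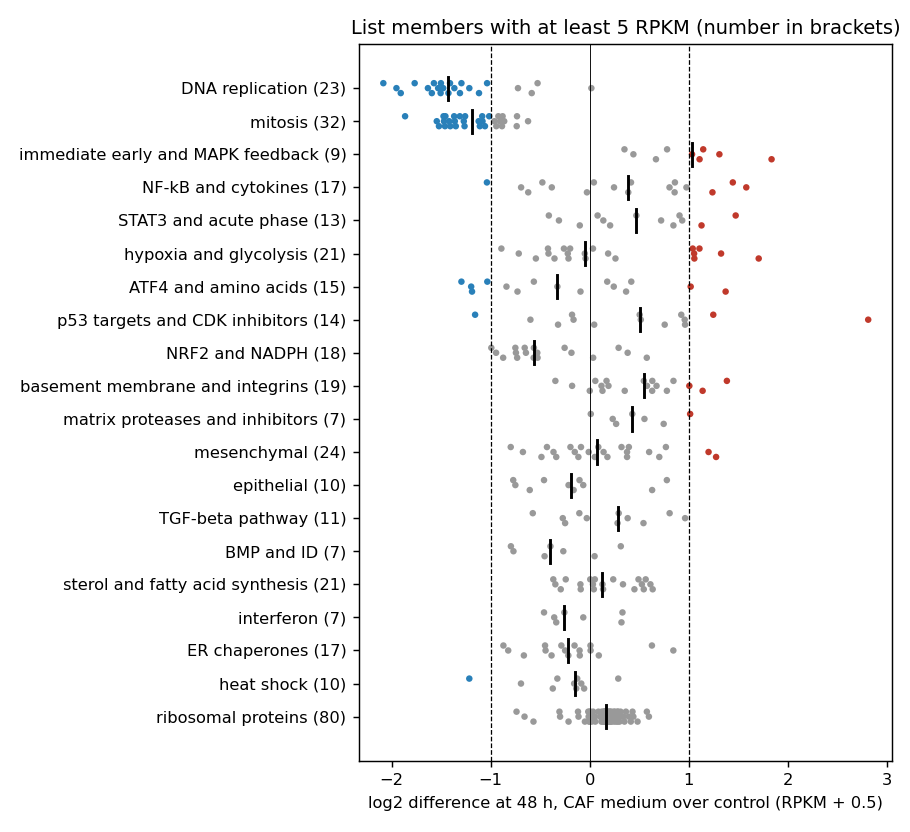
Log2 difference at 48 h (CAF medium over control, RPKM plus 0.5, horizontal axis) of every member with at least 5 RPKM of 20 gene lists, 1 point per gene, with red for rises and blue for falls past 2-fold (dashed lines) and a black bar at the list median. The DNA replication and mitosis medians lie at -1.43 and -1.19, the immediate early and MAPK feedback median at 1.03, and the ribosomal protein median at 0.16.

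Genes of the G1 to S transition commonly carry E2F sites near their start, and genes of G2 and mitosis commonly carry a cell cycle genes homology region (CHR) with CCAAT boxes upstream of it. The CHR is bound by the MuvB complex, which works with B-MYB and FOXM1. Promoter sequences were taken from RefSeq (GRCh38.p14), where 6560 of the 8048 genes matched by symbol or synonym, and the 250 bases upstream of 1 start per gene were searched on both strands. The following 150 bases upstream of the start are shown because they carry such motifs in the 3 mitosis genes with the largest falls that hold both CHR and CCAAT and in the 3 replication genes with the largest falls that hold E2F. Capitals mark TTTGAA (CHR), CCAAT and TTTNNCGC (E2F) on either strand, and each line is given 5′ to 3′ along the gene.
HMMR (chr5:163460482-163460631, plus strand): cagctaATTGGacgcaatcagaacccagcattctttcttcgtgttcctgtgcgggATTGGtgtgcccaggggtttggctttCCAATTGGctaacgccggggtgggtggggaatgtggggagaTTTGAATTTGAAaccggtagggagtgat
MKI67 (chr10:128126424-128126573, minus strand): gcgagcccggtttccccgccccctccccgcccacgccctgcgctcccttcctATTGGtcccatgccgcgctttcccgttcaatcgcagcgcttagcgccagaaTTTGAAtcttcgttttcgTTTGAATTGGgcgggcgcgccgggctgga
KIF11 (chr10:92592980-92593129, plus strand): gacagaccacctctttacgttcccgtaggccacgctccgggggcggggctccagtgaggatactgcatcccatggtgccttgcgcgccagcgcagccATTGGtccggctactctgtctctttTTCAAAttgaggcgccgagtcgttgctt
UHRF1 (chr19:4909351-4909500, plus strand): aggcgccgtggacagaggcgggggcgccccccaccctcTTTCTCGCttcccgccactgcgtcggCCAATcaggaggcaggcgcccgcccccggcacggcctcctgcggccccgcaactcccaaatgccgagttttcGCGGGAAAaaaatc
TYMS (chr18:657503-657652, plus strand): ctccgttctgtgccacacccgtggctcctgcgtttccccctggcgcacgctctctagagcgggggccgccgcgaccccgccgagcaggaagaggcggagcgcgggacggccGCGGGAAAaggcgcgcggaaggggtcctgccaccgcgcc
MCM3 (chr6:52284743-52284892, minus strand): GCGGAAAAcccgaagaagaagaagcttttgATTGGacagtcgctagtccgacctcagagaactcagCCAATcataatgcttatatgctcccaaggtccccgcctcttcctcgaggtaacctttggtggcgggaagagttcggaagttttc
In HMMR, MKI67 and KIF11 a CHR match began at -28, -29 and -28, counted in bases from the start. In MKI67 that match shares its last base with a CCAAT match on the other strand, and in HMMR the CCAAT matches at -69 and -66 overlap.

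The CHR letters TTTGAA were found in 15 of 26 mitosis promoters (57.7%), in 1 of 19 replication promoters (5.26%) and in 8.55% of the promoters of all included genes. CCAAT was found in 21 of 26 mitosis promoters (80.8%), in 13 of 19 replication promoters (68.4%) and in 35.3% of all. TTTNNCGC, a loose E2F pattern, showed the other division, with 8 of 19 replication promoters (42.1%), 1 of 26 mitosis promoters (3.85%) and 9.41% of all. It was also in 10 of 65 ribosomal protein promoters (15.4%). The stricter forms TTTCGCGC and TTTGGCGC were in 1 and 3 of the 19 replication promoters (5.26 and 15.8%), against 0.808 and 0.823% of all. Among the falls that belong to neither list, 25 of 162 promoters held TTTGAA (15.4%) and 19 held TTTNNCGC (11.7%). Of the rises, 9 of 138 promoters (6.52%) held the AP-1 letters TGACTCA, against 2.65% of all, and 10 (7.25%) held the CRE letters TGACGTCA, against 3.17% of all. The CRE letters were also in 10 of 196 promoters of the falls (5.1%) and in 4 of 26 mitosis promoters (15.4%), and the AP-1 letters in 2.04% of those of the falls. These are matches of letters, and no binding was measured.

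The p53 targets and inhibitors of cyclin-dependent kinases had a median difference of 0.51 over 14 members, 2 of which rose and 1 fell. These are 14.3 and 7.14% of the members, against 2.42 and 3.11% of all genes. GDF15 and CDKN1C rose. CDKN1C, the inhibitor p57, measured 5.57 RPKM in CAF medium and 2.06 RPKM in control medium (log2 1.25). CDKN1A (p21), GADD45A and CDKN1B (p27) did not reach 2-fold, at 0.96, 0.96 and 0.76, with CDKN1A at 118 RPKM in CAF medium and 60.3 RPKM in control medium. TP53I3, a quinone reductase, fell (-1.16), and MDM2, the p53 ubiquitin ligase, was at -0.60.

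Of 16 listed immediate early and MAPK feedback genes, 9 reached 5 RPKM in either 48 h library. All 9 were higher in CAF medium, with a median of 1.03. Of them, 5 rose past 2-fold (55.6%, against 2.42% over all genes). These genes are switched on within minutes of growth factor or stress signals, and the DUSP phosphatases switch the MAP kinases off again. JUN (chromosome 1), a subunit of AP-1, measured 70.1 RPKM in CAF medium and 28.02 RPKM in control medium (log2 1.31). DUSP1 (chromosome 5), a phosphatase of p38 and JNK, measured 89.0 RPKM in CAF medium and 41.03 RPKM in control medium (log2 1.11). KLF6 and DUSP4 rose by 1.14 and 1.03 beside DUSP5, and FOSL1, IER2, DUSP6 and MYC were at 0.78, 0.67, 0.44 and 0.35. The list had medians of 0.04 at 24 h and 0.19 at 72 h. With the 24 and 72 h controls in place of the 48 h control JUN differed by 0.84.

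Among NF-kB targets and cytokines 3 of 17 members rose (17.6%) and 1 fell (5.88%), with a median of 0.39. Over all genes 2.42% rose and 3.11% fell. IL8 (chromosome 4), the neutrophil chemokine CXCL8, measured 305 RPKM in CAF medium and 102 RPKM in control medium (log2 1.58). NFKB2, the precursor of the non-canonical NF-kB subunit, measured 42.04 RPKM in CAF medium and 15.2 RPKM in control medium (log2 1.44). BIRC3, an inhibitor of apoptosis, measured 49.3 RPKM in CAF medium and 20.6 RPKM in control medium (log2 1.24). The chemokine gene CXCL2 fell to 9.64 RPKM in CAF medium, against 20.3 RPKM in control medium (-1.04, but -0.98 after median centring and -0.93 against the 24 and 72 h controls), and CXCL3, CCL2, CXCL1 and CXCL5 were at -0.69, -0.62, -0.48 and -0.03. RELB, IL6 and LIF were at 0.97, 0.86 and 0.86. Of the 13 STAT3 and acute phase genes 2 rose (15.4%, against 2.42% of all genes). They were the kinase gene PIM1 (1.47) and the fibrinogen gamma chain gene FGG (1.13). FGG measured 181 RPKM in CAF medium and 82.4 RPKM in control medium. The other 2 fibrinogen chains, FGA and FGB, were at 0.93 and 0.91, and SAA1 and SAA2, near-identical copies between which reads cannot be assigned with certainty, at 0.84 and 0.72. Of 21 listed interferon genes 7 reached 5 RPKM, and none of these passed 2-fold (median -0.26, and 0.08 against the 24 and 72 h controls).

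The hypoxia and glycolysis list held large rises beside small negative differences. Its 6 rises were the aldolase gene ALDOC (1.70), the stress gene NDRG1 (1.32), the glucose transporter gene SLC2A3 (1.11), the collagen hydroxylase gene P4HA1 (1.05), the angiogenic factor gene VEGFA (1.05) and the vasodilator peptide gene ADM (1.04), a share of 28.6% against 2.42% over all genes. VEGFA measured 54.5 RPKM in CAF medium and 26.0 RPKM in control medium. The core glycolytic genes PGAM1, TPI1, LDHA, ENO1, PKM, PGK1 and GAPDH were all negative, between -0.89 and -0.21, and none passed 2-fold. The enzyme genes ALDOA, GPI and PFKP were at -0.05, -0.04 and 0.26, and the glucose transporter gene SLC2A1 at 0.03. The median of the 21 members was -0.05, close to that of all genes and of the opposite sign after median centring. VEGFA, P4HA1 and ADM missed 2-fold against the 24 and 72 h controls (0.75, 0.85 and 0.98).

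The ATF4 and amino acid list held 2 rises (13.3%) and 4 falls (26.7%) among 15 members, against 2.42 and 3.11% of all genes. Its median of -0.33 became 0.34 against the 24 and 72 h controls. DDIT3 (CHOP), a transcription factor of the stress response, measured 35.2 RPKM in CAF medium and 13.3 RPKM in control medium (log2 1.37), and the secreted glycoprotein gene STC2 rose by 1.02. The falls were the 2 chains of the large neutral amino acid transporter, SLC7A5 (-1.30) and SLC3A2 (-1.19, and -0.95 against the 24 and 72 h controls), the cystine transporter gene SLC7A11 (-1.03, but -0.98 after median centring and -0.87 against the 24 and 72 h controls) and the serine synthesis gene PSAT1 (-1.20). SLC7A5 measured 26.5 RPKM in CAF medium and 65.7 RPKM in control medium. PSAT1 measured 24.5 RPKM in CAF medium and 56.8 RPKM in control medium, and that control stood above the controls of 24 h (34.7 RPKM) and 72 h (23.7 RPKM), against whose mean the difference was -0.22. ATF4 itself was at 0.37.

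The other metabolic and stress lists held few calls. None of the 18 NRF2 and NADPH genes passed 2-fold, while 14 were negative, against 55.4% of all genes, and the median was -0.57, with the aldehyde dehydrogenase gene ALDH3A1 at 56.6 RPKM in CAF medium and 113 RPKM in control medium (-0.99) and the quinone reductase gene NQO1 at -0.75. HSP90AA1, the inducible HSP90, fell to 430 RPKM in CAF medium, against 1000.2 RPKM in control medium (-1.22), as the only call among 10 heat shock genes. No sterol and fatty acid synthesis gene (21 members, median 0.13) and no ER chaperone gene (17 members, median -0.22) passed 2-fold.

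The genes behind the series title stayed within 2-fold at 48 h. CDH1, E-cadherin of the epithelial junction, measured 19.2 RPKM in CAF medium and 12.3 RPKM in control medium (log2 0.63), and EPCAM, an epithelial adhesion molecule under the 5 RPKM limit, 3.98 and 2.50 RPKM in CAF and control medium (0.58). VIM, vimentin, measured 504 RPKM in CAF medium and 445 RPKM in control medium (0.18), and FN1, fibronectin, 263 and 203 RPKM in CAF and control medium (0.38). CDH2, N-cadherin, measured 53.5 RPKM in CAF medium and 72.3 RPKM in control medium (-0.43). SNAI2, the repressor SLUG, measured 5.27 RPKM in CAF medium and 9.53 RPKM in control medium (-0.80), and ZEB1, another repressor of E-cadherin, 11.1 and 8.29 RPKM in CAF and control medium (0.39). None of these 7 genes reached 2-fold in either direction at 48 h. At 24 h CDH1, EPCAM and SNAI2 differed by 1.44, 1.65 and -1.03, with EPCAM under 5 RPKM in both libraries. The others stayed within 2-fold at that time.

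None of the 10 epithelial genes that reached 5 RPKM passed 2-fold, and 8 of them were negative, against 55.4% of all genes. Among these were KRT8 (-0.77), the tight junction gene TJP1 (-0.75) and KRT18 (-0.61). CLDN1, a claudin of tight junctions, was at 0.78. Of 24 mesenchymal genes 2 rose (8.33%, against 2.42% of all genes). Among them was CYR61, a matricellular protein, with 38.7 RPKM in CAF medium and 16.6 RPKM in control medium (1.20, and 0.77 against the 24 and 72 h controls). The mesenchymal median was 0.07. No member of the TGF-beta pathway list passed 2-fold (11 members, median 0.28, and -0.03 with no limit on RPKM), with the ligand gene TGFB2 at 0.96 and the signal transducer gene SMAD3 at 0.81, and none of the 7 BMP and ID genes did (median -0.40), with ID2 and ID3 at -0.80 and -0.77.

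In the basement membrane and integrin list 3 of 19 members rose (15.8%, against 2.42% of all genes), all of them integrin chains. Of the 19 members 16 were positive, against 44.5% of all genes, and the median was 0.55. ITGA3 (chromosome 17), a laminin-binding integrin chain, measured 307 RPKM in CAF medium and 117 RPKM in control medium (log2 1.38). ITGB4, the beta chain of hemidesmosomes, measured 25.6 RPKM in CAF medium and 11.3 RPKM in control medium (1.14), and ITGB3, a chain of the vitronectin receptor, rose by 1.004 and missed 2-fold with a pseudocount of 1 (0.99) and against the 24 and 72 h controls (0.97). The integrin chains ITGA2, ITGB5, ITGB1, ITGA6 and ITGAV were at 0.58, 0.19, 0.17, 0.12 and -0.18. The laminin genes LAMA3 and LAMB3, which encode chains of epithelial laminins, were at 0.84 and 0.67. Of 15 listed genes of matrix proteases and their inhibitors, 7 reached 5 RPKM, and all 7 were positive (median 0.43). PLAUR, the urokinase receptor, rose by 1.01. It likewise missed 2-fold with a pseudocount of 1 and against the 24 and 72 h controls (0.82). Its ligand PLAU was at 0.75.

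Of the 5 most abundant transcripts, 4 came from the mitochondrial chromosome and 1 encoded a ribosomal protein, RPL26 (6704 RPKM in CAF medium and 5574 RPKM in control medium, log2 0.27). None of 80 ribosomal protein genes passed 2-fold, 66 were positive, against 44.5% of all genes, and the median was 0.16. Of 15 mitochondrial transcripts 4 fell (26.7%, against 3.11% of all genes), with a median of -0.38. Among the falls were the cytochrome b transcript, with 900 RPKM in CAF medium and 2100.5 RPKM in control medium (-1.22), and JA760602, with 2707 RPKM in CAF medium and 6866 RPKM in control medium (-1.34). The other mitochondrial falls, DQ582201 (-2.54) and JA429830 (-2.002), are gene models shorter than 400 bases. Of 6 histone genes HIST1H2BD fell (-1.24, but -0.73 against the 24 and 72 h controls). Polyadenylated RNA was selected, and most histone mRNAs of S phase carry no poly(A) tail.

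More genes passed 2-fold at 48 h than at any other time. By the same rule and each with its own genes above 5 RPKM, 57 genes rose and 80 fell at 3 h, 113 and 70 at 6 h, 159 and 108 at 12 h, 175 and 64 at 24 h, and 16 and 57 at 72 h. Of the 195 rises at 48 h, 53 also passed 2-fold at 24 h and 8 at 72 h, counted without an RPKM limit at those times. Among the genes that reached 5 RPKM at those times, 2.15 and 0.204% rose, so counts and shares do not rest on the same limit. Of the 250 falls, 33 also passed 2-fold at 24 h and 50 at 72 h, again without an RPKM limit at those times. Of the genes that reached 5 RPKM at those times, 0.785 and 0.727% fell. The direction was shared more widely than the call: 162 of the 195 rises (83.1%) were positive at 24 h, against 54.0% of all genes, and 237 of the 250 falls (94.8%) were negative at 72 h, against 59.2% of all genes. The mitosis list had medians of -0.72 at 24 h and -1.23 at 72 h, and the replication list -0.79 and -0.68.

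The position of the 48 h libraries among the other times is given as a description only, since the rises and falls were chosen on the 48 h values themselves. The 48 h CAF medium library was the highest CAF medium library in 160 of the 195 rises (82.1%), against 25.6% of all genes. In 16 of the rises (8.21%) the 48 h control was the lowest control, against 6.41% of all genes. The 48 h CAF medium library was the lowest CAF medium library in 156 of the 250 falls (62.4%), against 20.8% of all genes. In 18 of the falls (7.2%) the 48 h control was the highest control, against 19.1% of all genes. GDF15 measured 9.85 to 45.0 RPKM in the other 5 CAF medium libraries, and NR4A1 1.19 to 4.38 RPKM. The controls were not flat: MYBL2 stood at 51.1 RPKM at 3 h and at 12.9 RPKM at 72 h in control medium, and at 59.2 and 3.77 RPKM at these times in CAF medium.

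**Figure D4:**
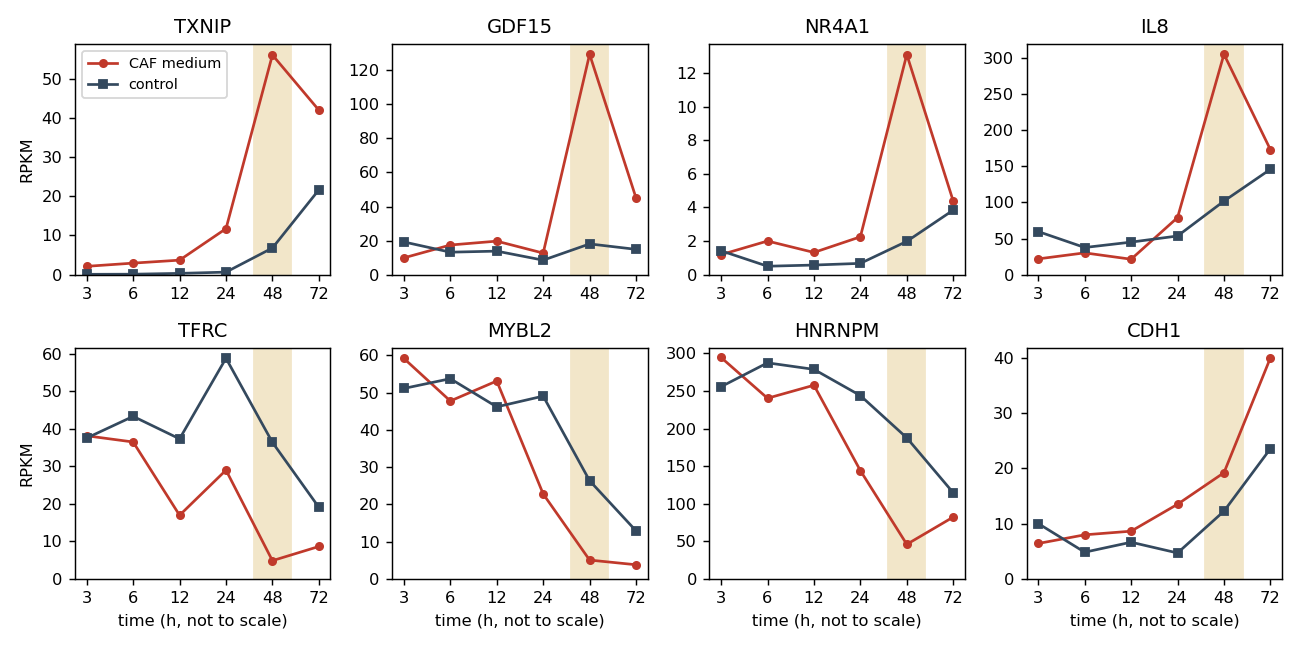
RPKM of 8 genes (vertical axes, each with its own scale from 0) at 3, 6, 12, 24, 48 and 72 h (horizontal axis, not to scale) in CAF medium (red circles) and control medium (dark blue squares), 1 library per point, with 48 h shaded. TXNIP, GDF15, NR4A1 and IL8 have their highest value in CAF medium at 48 h, TFRC and HNRNPM their lowest, MYBL2 falls further to 3.77 RPKM at 72 h, and CDH1 is highest at 72 h with 40.0 RPKM in CAF medium.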

How the data were processed

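Polyadenylated RNA of A549 cells in CAF conditioned medium and in control medium was sequenced in 12 libraries, 1 for each medium at each time. Oligo(dT) beads selected the RNA for directional libraries, per the labels' protocols. The authors deposited RPKM values with 2 decimals beside a gene length in bases. TopHat2, edgeR and hg19 are named per the submitters' processing notes without versions. How reads were counted, whether by strand, on which annotation, and how the 2 biological replicates were joined is not given in the sources used here, so reads of antisense, overlapping or near-identical genes cannot be told apart. A549 small RNA of the same series was not used here.

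Columns were assigned to samples by the codes in the labels, and no column was without a sample. Depth was worked out from gene models under 200 bases, where 100% of the 75 and 66 values checked at 48 h in CAF and control medium were whole reads within 0.1 read. Differences are log2 of (RPKM + 0.5) in CAF medium over control, and a call is a 2-fold change. Plain ratios carry exact 95% intervals from the recovered reads, which cover counting error only (Python 3.11.15, pandas 2.3.3, scipy 1.17.1). No test was run, with 1 library a group. The scripts were tested on simulated data.

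The genes and lists were chosen with earlier results of these data known. Named were the 15 largest rises and falls and the 5 highest RPKM among gene models of at least 400 bases, every call in 25 lists and 7 genes of the title. Another 7 lists were added after their values were seen. List genes absent from the table were not analysed here, and a few others are not reported here. Alternatives were other pseudocounts, filters and scalings, the longer gene models alone and, added after seeing the data, the 24 and 72 h controls, as the mean of their log2 values. Promoter motifs numbered 10, of which an NF-kB motif was too rare to compare (12 of 6560 promoters, 0.183%).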

Additional observations from a re-analysis of the deposited data

Results flagged for a closer look

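The difference at 48 h was opposite to that at an earlier time in 11 of the genes named here, each of them past 2-fold at both times. These differences between times were not tested, since each time has 1 library per medium. INHBA rose by 1.93 at 48 h and differed by -1.61 at 3 h. IL8 rose by 1.58 at 48 h and differed by -1.43 at 3 h and -1.06 at 12 h. NFKB2 (1.44) and BIRC3 (1.24) rose at 48 h and differed by -1.08 and -1.07 at 3 h. CYR61 rose by 1.20 at 48 h and differed by -1.67 at 3 h, JUN by 1.31 at 48 h and -1.23 at 6 h, and STC2 by 1.02 at 48 h and -1.09 at 3 h. VEGFA rose by 1.05 at 48 h and differed by -1.24 at 3 h and -1.34 at 12 h. ADM rose by 1.04 at 48 h and differed by -1.65 at 6 h and -1.04 at 12 h. EREG, a ligand of the EGF receptor, rose by 1.21 at 48 h and differed by -1.58 at 3 h and -1.28 at 24 h, and by -1.20 at 12 h, when both libraries were under 5 RPKM.

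BC005927 rose by 1.85 at 48 h and differed by -1.17, -1.82, -1.03 and -1.47 at 3, 6, 12 and 24 h. It measured 33.0 RPKM in CAF medium and 8.75 RPKM in control medium at 48 h, against 13.7 and 38.7 RPKM in CAF and control medium at 24 h. Over all genes, 15 of the 195 rises at 48 h were 2-fold lower in CAF medium at 3 h, 4 at 6 h, 6 at 12 h and 3 at 24 h. At these times 1.03, 0.902, 1.42 and 0.785% of the included genes fell. Of the 250 falls, 1 was 2-fold higher in CAF medium at 12 h and none at 3, 6, 24 or 72 h. Rises made up 0.732, 1.46, 2.09, 2.15 and 0.204% of the included genes at 3, 6, 12, 24 and 72 h.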

How the results depend on the processing

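No paired analysis was possible because each medium had 1 library at 48 h, and for the same reason no replicate could be left out. The counts of 195 rises and 250 falls grew to 349 and 398 with a limit of 1 RPKM and to 379 and 420 with no limit, since more genes were included, and the falls were 161 with a limit of 10 RPKM. Pseudocounts of 0.1 and 1, 3 scalings and longer gene models kept both counts within 1.5-fold (168 to 231 rises and 208 to 274 falls). With the 24 and 72 h controls, 149 of the 195 rises and 190 of the 250 falls remained, among totals of 242 rises and 230 falls. Of 102 named calls, 4 fell short of 2-fold under each scaling (AURKA, RFC3, CXCL2 and SLC7A11), 7 with a pseudocount of 1 and 17 with the 24 and 72 h controls. No named call changed direction. With 1 library per medium the spread between cultures was not measured.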

Other observations

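Several gene families not described above also differed at 48 h, and they were chosen after their values were seen. The alpha and beta tubulin genes were lower in CAF medium in 8 of 8 members, and 5 fell past 2-fold, against 3.11% of all genes (median -1.24). TUBA1B, the main alpha tubulin, measured 18.4 RPKM in CAF medium and 66.5 RPKM in control medium (log2 -1.82), although reads of near-identical tubulin copies may be split between them. Of 20 genes with HNRNP names, most of them RNA-binding splicing factors, 4 fell and 1 rose (median -0.64), and of 10 SRSF splicing factor genes 3 fell (median -0.47), where 3.11% of all genes fell and 2.42% rose. HNRNPU, a nuclear scaffold protein, measured 79.8 RPKM in CAF medium and 200.4 RPKM in control medium (-1.32), while its antisense neighbour HNRNPU-AS1 measured 13.3 RPKM in CAF medium and 6.22 RPKM in control medium (1.04, but 0.95 against the 24 and 72 h controls). Reads of these overlapping genes cannot be told apart with certainty. The nuclear lamin genes LMNB1 and LMNB2 fell by 1.46 and 1.05 on the log2 scale, and LMNB2 missed 2-fold after median centring (-0.998) and against the 24 and 72 h controls (-0.97).

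All 10 host genes of small nucleolar RNAs were higher in CAF medium, with a median of 0.89 and 3 past 2-fold, against 2.42% of all genes. GAS5, a host gene whose spliced RNA accumulates when growth stops, measured 87.1 RPKM in CAF medium and 40.7 RPKM in control medium (1.09). The nuclear long non-coding RNAs MALAT1 and NEAT1 rose by 1.03 and 1.15, though by 0.81 and 0.96 against the 24 and 72 h controls, with MALAT1 at 3692 RPKM in CAF medium and 1805 RPKM in control medium. Among 9 polyamine genes 2 rose (22.2%) and 1 fell (11.1%), against 2.42 and 3.11% of all genes. SAT1, which acetylates polyamines for export, measured 3211 RPKM in CAF medium and 1135 RPKM in control medium (1.50). The spermine oxidase gene SMOX rose by 1.53. ODC1, which makes putrescine, fell to 16.1 RPKM in CAF medium, against 45.0 RPKM in control medium (-1.45). Of 8 listed genes of the EGF family 4 reached 5 RPKM, HBEGF and EREG of them in CAF medium only. Of the 4 members HBEGF, EREG and EGFR rose (1.82, 1.21 and 1.03), against 2.42% of all genes, and ERBB2 was at -0.88. Against the 24 and 72 h controls EREG and EGFR missed 2-fold (0.89 and 0.57). ARRDC4, the paralogue of TXNIP, rose by 1.37, and PTGS2, the inducible cyclooxygenase, measured 51.7 RPKM in CAF medium and 16.4 RPKM in control medium (1.63). Beside TFRC, no other of 9 iron genes passed 2-fold, with the ferritin genes FTL and FTH1 at -0.51 and -0.15.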
